A study of Mus musculus with 11 samples.

Results

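Transcripts of interferon gamma (Ifng), of its receptor chains Ifngr1 and Ifngr2 and of the receptor-bound kinases Jak1 and Jak2 were followed on 11 arrays of cultured mouse CD8+ T cells. These 5 genes were taken by name, with every probe set that carries 1 gene symbol, which gave 9 probe sets of 34945 and 5 genes of 18193. All groups were CD8+ T cells of the Pmel-1 transgenic mouse, whose T cells share a single receptor against the melanoma antigen gp100, so the levels describe that receptor's T cells. Cells enriched as CD44- (naive) or CD44+ (central memory) were activated with antibodies to CD3 and CD28, activated again by allogeneic feeder cells carrying the gp100 peptide, and kept with 10 cetus units of IL2 for 2 weeks. The memory-derived unstimulated group (3 arrays) and the naive-derived unstimulated group (2 arrays, from experiments 1 and 2) received nothing further. The memory-derived stimulated and naive-derived stimulated groups (3 arrays each) received CD3 and CD28 antibodies once more for 4 h before lysis. The 3 replicates came from independent experiments, and the age and number of the animals are not given in the sources used here.

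Interferon gamma is the cytokine by which CD8+ effector T cells activate macrophages and raise antigen presentation in surrounding cells. It binds IFNGR1, which carries the kinase JAK1, and draws in IFNGR2, which carries JAK2. The activated kinases pass the signal to the nucleus, where gamma-activated sites (GAS) lie near induced genes such as Irf1, the guanylate-binding proteins and the immunoproteasome subunits. T cells both secrete the cytokine and carry its receptor, and in T cells the receptor chains are known to be regulated with activation.

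Levels of Ifngr1, Jak1 and Jak2 separated memory-derived unstimulated cells from the other 3 groups, and those of Ifngr2 did not. Of all tested probe sets, 15.9% lay higher and 13.9% lower on the 3 memory-derived unstimulated arrays than on the other 8. On stimulation of memory-derived cells Ifngr1 fell 5.63-fold, Jak1 fell 2.19-fold on its brightest probe set and Jak2 rose 4.34-fold on its brightest. Without stimulation, naive-derived cells differed from memory-derived cells in the same directions, by 6.09-fold, 2.02-fold and 4.24-fold. Ifng itself was higher on all 5 naive-derived arrays than on all 6 memory-derived arrays, as for 2.91% of tested probe sets (3.97% lay lower). In the main fit, where the 11 arrays shared their spread, Ifng passed in no comparison. Values are on a log2 scale (the deposited values times 3.322), a difference of 1 is a doubling, and a probe set passed at an adjusted p below 0.05. Of the 8 member probe sets tested, 6 passed on stimulation of memory-derived cells, 2 higher and 4 lower, where 28.1% of all tested probe sets passed (13.6% higher and 14.5% lower). Without stimulation 6 also differed by origin, 2 higher and 4 lower in naive-derived cells, against 22.5% of all (10.3% higher and 12.1% lower). In both comparisons the 6 belonged to Ifngr1, Jak1 and Jak2 only, and probe sets of the same gene are repeat readings, not separate members. No member passed on stimulation of naive-derived cells, where 0.0111% of all did, or by origin after stimulation, where 2.92% did (1.36% higher and 1.56% lower). In naive-derived cells 3 of 27046 probe sets passed in all, and 2145 had an unadjusted p under 0.05, where chance gives 1352. Passing in the first 2 comparisons was thus common across the transcriptome.

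**Figure D1:**
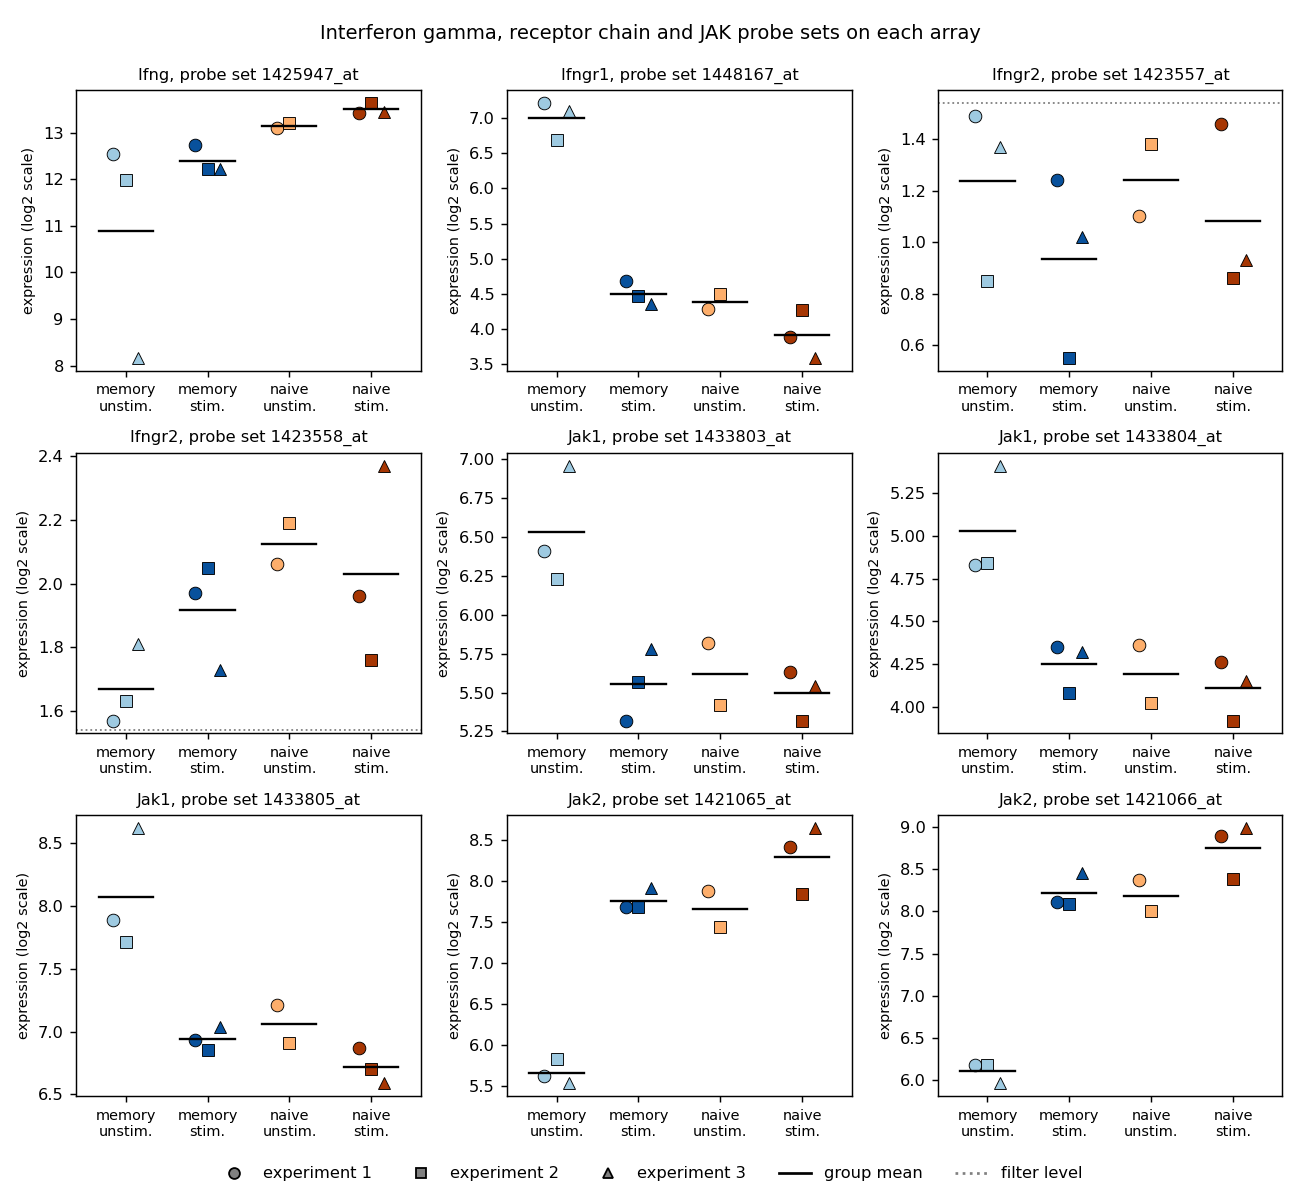
Level of each member probe set (log2 scale, vertical axis) on each array of the 4 groups, with the experiment as the symbol, the group mean as a line and the filter level of 1.54 dotted. Ifngr1 and Jak1 are highest and Jak2 lowest on the 3 memory-derived unstimulated arrays, and the Ifng level of 8.16 on memory-derived unstimulated array 3 lies far below the other 10.

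The promoters of the 4 members whose levels are described in most detail are printed as the 250 bases before the gene's start (RefSeq, GRCm38.p6), read 5′ to 3′ on the gene's strand. They show what sequence lies before genes whose transcripts moved together (Ifngr1 with Jak1) or opposite ways (Ifngr1 and Jak2). Capitals mark matches to 6 short motifs searched on both strands, except the TATA box, which was searched on the gene's strand.
Ifng promoter, chr10:118440796-118441045, plus strand: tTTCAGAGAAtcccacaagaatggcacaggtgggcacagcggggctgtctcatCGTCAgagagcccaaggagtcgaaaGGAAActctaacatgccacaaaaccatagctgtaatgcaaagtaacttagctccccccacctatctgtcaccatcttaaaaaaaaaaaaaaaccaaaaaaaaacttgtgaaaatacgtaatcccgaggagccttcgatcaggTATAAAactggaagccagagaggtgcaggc
Ifngr1 promoter, chr10:19591699-19591948, plus strand: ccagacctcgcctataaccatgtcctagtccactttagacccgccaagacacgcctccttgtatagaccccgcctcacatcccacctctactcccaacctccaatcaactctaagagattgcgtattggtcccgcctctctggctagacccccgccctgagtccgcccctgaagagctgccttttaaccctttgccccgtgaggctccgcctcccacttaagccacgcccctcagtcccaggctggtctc
Jak1 promoter, chr4:101265224-101265473, minus strand: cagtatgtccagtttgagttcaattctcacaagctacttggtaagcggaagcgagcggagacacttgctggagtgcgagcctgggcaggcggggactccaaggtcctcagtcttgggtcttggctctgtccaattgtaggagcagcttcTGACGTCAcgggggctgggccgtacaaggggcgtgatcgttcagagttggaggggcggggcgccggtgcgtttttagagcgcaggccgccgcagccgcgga
Jak2 promoter, chr19:29251553-29251802, plus strand: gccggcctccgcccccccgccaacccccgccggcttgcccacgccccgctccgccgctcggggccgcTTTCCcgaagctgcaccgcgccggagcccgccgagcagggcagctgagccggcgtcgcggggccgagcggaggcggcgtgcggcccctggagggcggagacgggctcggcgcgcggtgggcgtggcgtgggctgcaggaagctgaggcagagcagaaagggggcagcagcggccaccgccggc
The motifs were the core of NFAT sites (GGAAA, in 55.6% of 32851 windows of this length), an AP-1 site (TGANTCA, 6.75%), the core of cAMP response elements (TGACG, 17.8%), the core of T-box sites (GTGTGA, 12.3%), a GAS (TTCNNNGAA, 7.02%) and a TATA box (TATAAA, 7.59%). The Ifng window held the TATA box 30 bases before the start, an NFAT core at 172, a reverse-strand cAMP response core at 197 and a GAS at 249. The Jak1 window held cAMP response cores on both strands, overlapping, at 101 and 98. The Jak2 window held a reverse-strand NFAT core at 183, and the Ifngr1 window held none of the 6. The windows differed in base composition, from 45.2% G and C before Ifng through 59.2% before Ifngr1 and 61.2% before Jak1 to 80.8% before Jak2, with a median of 52.4% over all windows. A match describes the letters only, and no binding was measured.

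The arrays carried the labelled cell type: all 7 CD8 T cell markers on the array lay above the filter level in every group, while Cd4, the B cell genes Ms4a1 and Cd79a and the macrophage genes Mpeg1 and C1qa lay below it on all 11. Other markers of those lists lay above it at low levels: 3 to 4 of 6 B cell markers in each group, with Cd22 on all 11 arrays and Blk on 10 (group means from 1.71 to 2.24). Of 6 markers on the CD4 T and NK cell list, 5 lay above it on some array in memory-derived unstimulated cells. The count was 3 in memory-derived stimulated cells and 2 in each naive-derived group. Zbtb7b of that list lay above it on all 11 arrays (2.76 to 3.03). Klra8 was at group means of 1.64 and 1.65 in memory-derived unstimulated and stimulated cells, against 0.28 and 0.45 in naive-derived ones. Foxp3 was at 1.57 and 1.40 against 1.66 and 1.26. Of 10 myeloid markers 7 lay above the filter on some array of each group, and their summed linear level was 129 to 160 in memory-derived unstimulated, 99.9 to 110 in memory-derived stimulated, 56.4 to 67.7 in naive-derived unstimulated and 48.7 to 69.3 in naive-derived stimulated cells. Of the 4 above the filter on all 11 arrays, Itgax and Cd68 were at group means of 6.27 and 5.24 in memory-derived unstimulated cells against 4.35 and 3.47 in naive-derived stimulated cells, while Csf1r and Adgre1 were at 2.46 and 1.69 against 2.73 and 1.97. As a sign of RNA quality, the 3′ actin probe set exceeded the 5′ one by 0.263 to 0.351 (log10) in unstimulated cells of memory origin and by 0.462 to 0.478 in those of naive origin. In stimulated cells the excess was 0.431 to 0.52 for memory origin and 0.581 to 0.782 for naive origin. For the Gapdh pair the 3′ minus 5′ difference was negative on all 11 arrays (-0.548 to -0.388). Memory-derived unstimulated arrays (-0.454 to -0.388) overlapped each other group on the Gapdh pair. The first principal component held 56.5% of the variance and set memory-derived unstimulated arrays (40.3 to 77.4, array 3 highest) apart from all others (-37.5 to -11.6). The myeloid sums, the actin difference and the first component move with the groups that the receptor genes separate, and the Gapdh difference does not. Their part in those results was not tested. In a bulk sample a smaller share of cells with a transcript and less transcript per cell cannot be told apart.

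Ifng was measured by 1 probe set, 1425947_at, whose levels lie in the upper part of a scale that ends at 15.15. In memory-derived unstimulated cells Ifng was at 12.55, 11.99 and 8.16 in experiments 1, 2 and 3 (mean 10.9, SD 2.39, n = 3). In memory-derived stimulated cells Ifng was at 12.73, 12.22 and 12.22 (12.39 ± 0.294, SD, n = 3). Array 3 of the unstimulated group stood apart, and its other 2 arrays lay within or just under the range of the stimulated group. In naive-derived unstimulated cells Ifng was at 13.10 and 13.21 (mean 13.16, SD 0.073, n = 2). In naive-derived stimulated cells Ifng was at 13.42, 13.64 and 13.45 (13.51 ± 0.12, SD, n = 3). The order of the group means was thus memory-derived unstimulated, memory-derived stimulated, naive-derived unstimulated and naive-derived stimulated, and only the first 2 overlapped. All 5 naive-derived arrays lay above all 6 memory-derived arrays, as they did for 2.91% of tested probe sets (for 3.97% they lay below all).

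Stimulation of memory-derived cells changed Ifng by 1.49 (SE 0.839, adjusted p = 0.219), and the 95% interval of -0.35 to 3.33 holds both no change and a large rise. Within experiments the change was 0.18, 0.23 and 4.06, so the mean rests on experiment 3, and without memory-derived unstimulated array 3 it was 0.12 (adjusted p = 0.747, over all alternatives 0.061 to 0.747). In naive-derived cells the change was 0.35 (SE 0.938, adjusted p = 0.965, interval -1.71 to 2.41), with 0.32 and 0.44 within experiments 1 and 2. That SE draws on the spread of all 4 groups, and the SD was 0.073 and 0.12 in the naive-derived groups against 2.39 in memory-derived unstimulated cells. The naive-derived stimulated arrays all lay above the naive-derived unstimulated ones, as for 12.5% of tested probe sets (12.9% lay below). The difference between the 2 responses was -1.14 (SE 1.26, adjusted p = 0.653), and its sign turned without array 3 (0.23).

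Between origins, Ifng was 2.26 higher in naive-derived unstimulated cells (SE 0.938, 4.78-fold, adjusted p = 0.11), with 0.56 and 1.22 within experiments 1 and 2. Without memory-derived unstimulated array 3 the difference was 0.89 (adjusted p = 0.0266), and without array 1 it was 3.08 (adjusted p = 0.0365). Of 22 alternatives 3 gained the call, 2 of them with an array left out, and the adjusted p ran from 0.0266 to 0.298 over all. After stimulation Ifng was 1.12 higher in naive-derived cells (SE 0.839, 2.17-fold, adjusted p = 0.58), with 0.70, 1.43 and 1.23 within the 3 experiments. The spread behind that standard error is shared with memory-derived unstimulated cells. When only the 6 stimulated arrays were fitted, the same difference of 1.12 had an SE of 0.171 and an adjusted p of 0.0249, and without memory-derived unstimulated array 3 an SE of 0.186 and an adjusted p of 0.0117 (0.0117 to 0.736 over all alternatives). Stimulated arrays of the 2 origins did not overlap for Ifng, with naive-derived ones higher for 10.6% of tested probe sets.

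**Figure D2:**
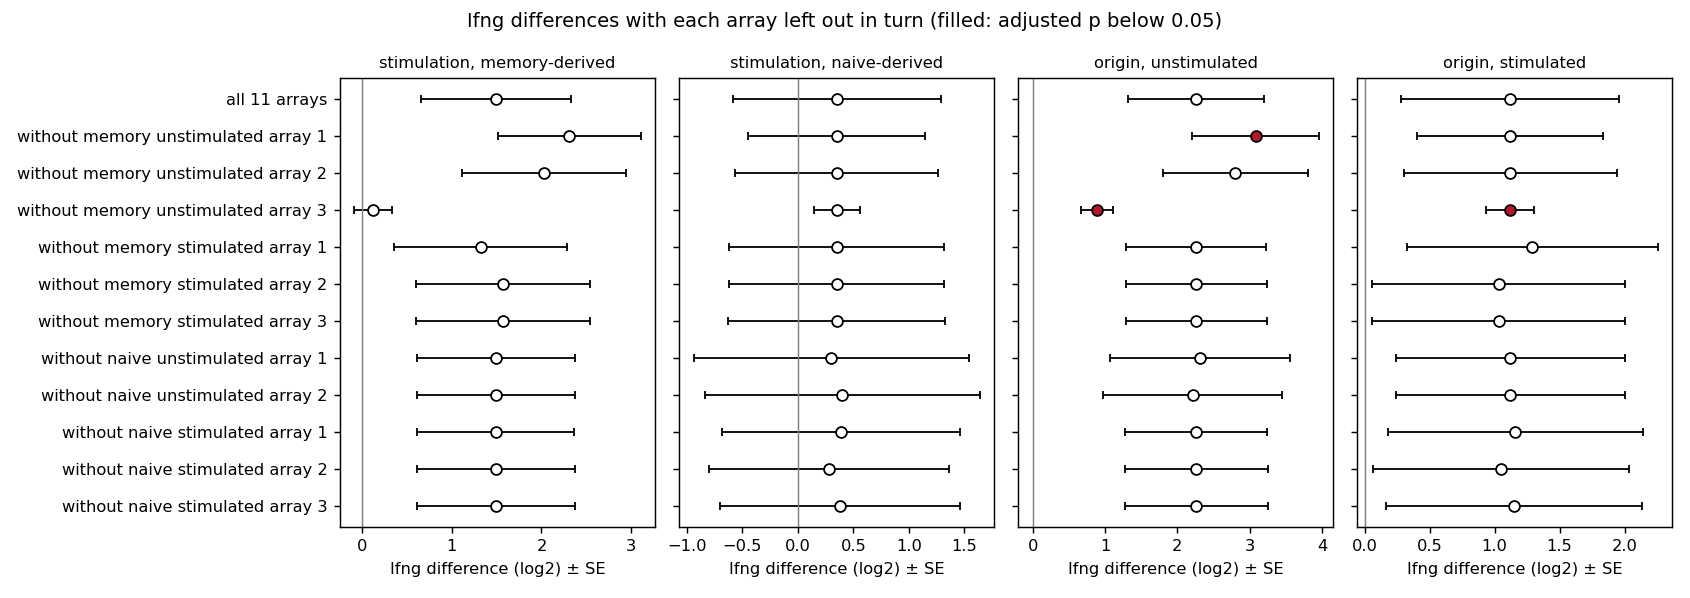
Ifng differences (log2, horizontal axis, bars are ± SE) in 4 comparisons with all 11 arrays and with each array left out in turn; filled points have an adjusted p below 0.05. Without memory-derived unstimulated array 3 the memory response drops from 1.49 to 0.12 and the bars shorten in every panel, and the origin difference after stimulation stays at 1.12.

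Ifngr1, the ligand-binding chain, was measured by 1448167_at. In memory-derived unstimulated cells Ifngr1 was at 7.21, 6.69 and 7.10 (7.0 ± 0.275, SD, n = 3). In memory-derived stimulated cells it was at 4.69, 4.47 and 4.36 (4.51 ± 0.17, SD, n = 3). In naive-derived unstimulated cells it was at 4.28 and 4.50 (mean 4.39, SD 0.158, n = 2), and in naive-derived stimulated cells at 3.89, 4.27 and 3.59 (3.92 ± 0.337, SD, n = 3). The 3 memory-derived unstimulated arrays lay above the other 8, as for 15.9% of tested probe sets, and those 8 spanned 3.59 to 4.69. Memory-derived stimulated and naive-derived unstimulated arrays overlapped, and these 2 groups were not compared by a test. Ifngr1 fell by 2.49 on stimulation of memory-derived cells (SE 0.196, adjusted p = 3.87e-05), and by 2.52, 2.22 and 2.75 within the 3 experiments. It was also lower by origin without stimulation, at -2.61 (SE 0.219, adjusted p = 8.03e-05), with no overlap, as for 26.3% of tested probe sets, and with -2.93 and -2.18 within experiments 1 and 2. In naive-derived cells the stimulation difference was -0.48 (SE 0.219, adjusted p = 0.635, interval -0.96 to 0.01), and the arrays did not overlap, with stimulated ones lower for 12.9% of tested probe sets. After stimulation the origin difference was -0.59 (SE 0.196, adjusted p = 0.164, interval -1.02 to -0.16), and the naive-derived arrays all lay below the memory-derived ones, as for 13.2% of tested probe sets.

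Ifngr2, the signal-transmitting chain, had 2 probe sets, both near the floor of what the arrays resolve. Probe set 1423557_at lay between 0.55 and 1.49, below the filter level of 1.54 on all 11 arrays, and was not tested. Probe set 1423558_at was at 1.57, 1.63 and 1.81 in memory-derived unstimulated cells and at 1.97, 2.05 and 1.73 in memory-derived stimulated cells. It was at 2.06 and 2.19 in naive-derived unstimulated cells and at 1.96, 1.76 and 2.37 in naive-derived stimulated cells. Its stimulation difference was 0.25 in memory-derived cells (SE 0.168, adjusted p = 0.313, interval -0.12 to 0.61) and -0.10 in naive-derived cells (SE 0.187, adjusted p = 0.945). Without stimulation it was 0.46 higher in naive-derived cells (SE 0.187, adjusted p = 0.105, interval 0.05 to 0.87), with no overlap between the groups, as for 25.4% of tested probe sets. The 2 Ifngr2 probe sets did not track each other over the 11 arrays (Pearson r = -0.123). At these levels a change in Ifngr2 smaller than the intervals could not be detected.

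Jak1, the kinase on the IFNGR1 chain and on many other cytokine receptors, had 3 probe sets that gave the same picture (r of 0.955 to 0.967 between them over 11 arrays). On 1433805_at, the brightest, Jak1 was at 7.89, 7.71 and 8.62 in memory-derived unstimulated cells and at 6.93, 6.85 and 7.04 in memory-derived stimulated cells. It was at 7.21 and 6.91 in naive-derived unstimulated cells and at 6.87, 6.70 and 6.59 in naive-derived stimulated cells. The memory-derived unstimulated arrays again lay above the other 8, as for 15.9% of tested probe sets, and those 8 spanned 6.59 to 7.21. Jak1 fell on stimulation of memory-derived cells on all 3 probe sets, by 1.13 on 1433805_at (SE 0.212, adjusted p = 0.00273), by 0.97 on 1433803_at (adjusted p = 0.00514) and by 0.77 on 1433804_at (adjusted p = 0.00979). Within the 3 experiments the difference on 1433805_at was -0.95, -0.86 and -1.59, and no stimulated array reached an unstimulated one, as for 22.8% of tested probe sets. By origin without stimulation Jak1 was lower in naive-derived cells, at -1.01 (SE 0.237, adjusted p = 0.0115), -0.92 (adjusted p = 0.0156) and -0.83 (adjusted p = 0.015). These 3 origin calls were lost when array 2 of the naive-derived unstimulated group was left out (0.105, 0.147 and 0.139 as adjusted p) and when only the 5 unstimulated arrays were fitted (0.0532, 0.0516 and 0.0539). In naive-derived cells the stimulation difference was -0.34 on 1433805_at (SE 0.237, adjusted p = 0.788, interval -0.86 to 0.18), and after stimulation the origin difference was -0.22 (SE 0.212, adjusted p = 0.684).

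Jak2, the kinase on the IFNGR2 chain and on receptors for growth hormone, erythropoietin and interleukin 12, moved opposite to Jak1. On 1421066_at, the brighter of its 2 probe sets, Jak2 was at 6.18, 6.17 and 5.96 in memory-derived unstimulated cells and at 8.11, 8.09 and 8.46 in memory-derived stimulated cells. It was at 8.38 and 8.0 in naive-derived unstimulated cells and at 8.90, 8.39 and 8.99 in naive-derived stimulated cells. The 3 memory-derived unstimulated arrays lay below the other 8, as for 13.9% of tested probe sets, and the 2 middle groups overlapped. Jak2 rose by 2.12 on stimulation of memory-derived cells (SE 0.187, adjusted p = 5.89e-05), with 1.93, 1.92 and 2.5 within the 3 experiments and no overlap, as for 21.8% of tested probe sets. On 1421065_at the rise was 2.10 (SE 0.206, adjusted p = 0.000108), and the probe sets followed each other closely (r = 0.997 over 11 arrays). Jak2 was also higher in naive-derived than in memory-derived unstimulated cells, by 2.08 (SE 0.209, adjusted p = 0.000196) and 2.00 (SE 0.231, adjusted p = 0.000398). In naive-derived cells the stimulation differences were 0.57 (SE 0.209, adjusted p = 0.543, interval 0.11 to 1.03) and 0.64 (SE 0.231, adjusted p = 0.539). After stimulation the origin difference was 0.54 on both probe sets (adjusted p = 0.183 and 0.231).

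**Figure D3:**
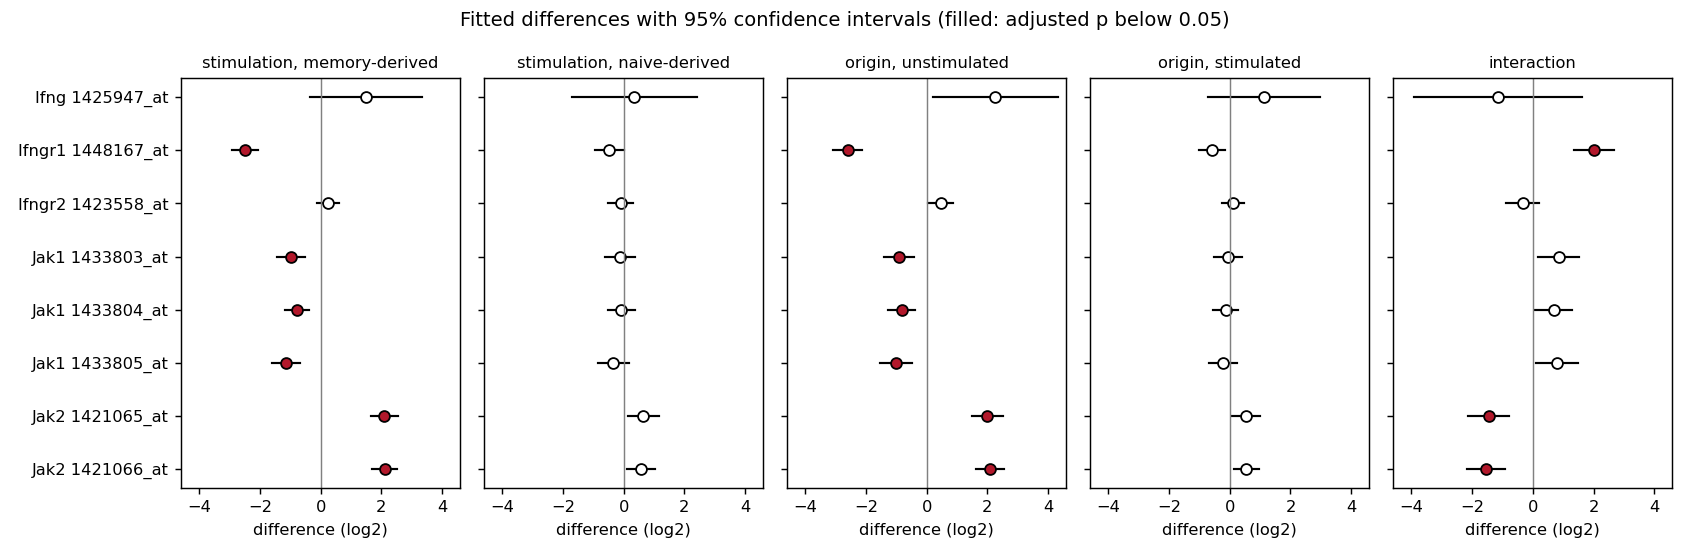
Fitted log2 difference (horizontal axis) of each tested member probe set in the 5 comparisons, with 95% confidence intervals as bars; filled points have an adjusted p below 0.05. Ifngr1 and Jak1 lie below 0 and Jak2 above 0 in the panels of stimulation in memory-derived cells and of origin without stimulation, and the Ifng intervals are the widest in every panel.

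The response to stimulation was compared directly between origins, as the naive-derived response minus the memory-derived response. Of the 8 member probe sets 3 passed, 1 higher and 2 lower, against 1.68% of all tested probe sets (0.939% higher and 0.743% lower). The difference was 2.02 for Ifngr1 (SE 0.294, adjusted p = 0.0191), -1.54 for Jak2 on 1421066_at (SE 0.28, adjusted p = 0.0329) and -1.46 on 1421065_at (SE 0.309, adjusted p = 0.0461). For Jak1 it was 0.79, 0.85 and 0.69 (adjusted p = 0.18, 0.145 and 0.18) and for Ifngr2 -0.34 (adjusted p = 0.466). Ifngr1 and Jak2 thus moved further in memory-derived cells, in which they started from other levels. The sizes held within 1.84 to 2.18 for Ifngr1 and -1.73 to -1.36 for Jak2 on 1421066_at over all alternatives, but the calls did not. With the experiment number as a replicate block the adjusted p was 0.0607 for Ifngr1 and 0.067 and 0.0794 for Jak2, so all 3 calls were lost. Without memory-derived stimulated array 2 it was 0.0691 for Ifngr1, 0.0865 for Jak2 on 1421066_at and 0.107 on 1421065_at. Without naive-derived unstimulated array 1 it was 0.119, 0.148 and 0.172, and without array 2 of that group 0.0722, 0.0821 and 0.106. Over the 11 arrays left out in turn the call was lost in 6 cases for Ifngr1, 8 for Jak2 on 1421066_at and 10 on 1421065_at, with adjusted p between 0.00237 and 0.119, 0.00618 and 0.148, and 0.0116 and 0.172 over all alternatives. The 3 arrays of memory-derived unstimulated cells enter both this comparison and the 2 above, so the 3 results share their values.

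Of the list of genes known to be induced by interferon gamma, 33 of 38 were tested, each read from its brightest probe set. Signalling by the receptor was not measured, and whether interferon gamma or another signal set these levels was not tested. On stimulation of memory-derived cells 22 fell and 2 rose, where 16.6% of all tested genes fell and 13.8% rose, and the list median was -1.12 against 0 for all genes. The largest falls were in Ifi47 (-2.64, SE 0.185, adjusted p = 2.61e-05), Gbp6 (-2.52, SE 0.135, adjusted p = 1.21e-05), Igtp (-2.25, SE 0.169, adjusted p = 3.36e-05) and Irgm2 (-2.19, SE 0.23, adjusted p = 0.000157). Gbp6 encodes a guanylate-binding protein and the other 3 encode immunity-related GTPases, which act on vacuoles that hold pathogens. These GTPase genes belong to families of related genes, and whether each probe set tells the family members apart was not checked. Irf1, a transcription factor induced early by interferon gamma, fell by 1.83 (SE 0.198, adjusted p = 0.000181), from 5.77 to 6.56 across unstimulated arrays to 4.15 to 4.25 across stimulated ones. The 2 that rose, named after their values were seen, were Irf8 (1.16, adjusted p = 0.0461) and Wars (0.94, adjusted p = 0.000344). On memory-derived unstimulated array 3 Irf8 lay -2.11 from its mean over the arrays, against -0.64 and -0.12 on the other 2, and without that array 21 of the list fell and 1 rose. Over all alternatives 19 to 23 fell and 1 to 3 rose. In naive-derived cells none of the 33 passed, as 0.0135% of all genes did, and the list median was -0.34 against 0.01.

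**Figure D4:**
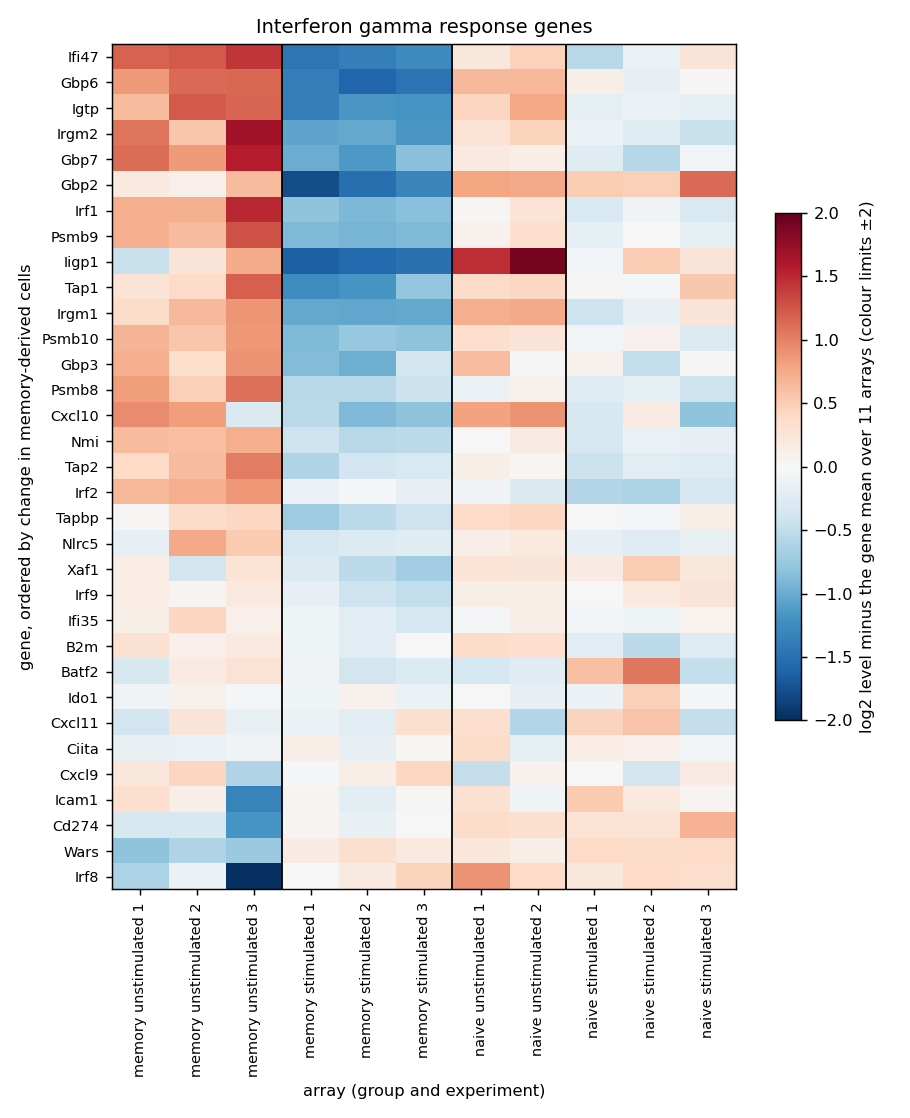
Level of each of the 33 tested interferon gamma response genes (rows) on each array (columns), as log2 minus the gene's mean over the 11 arrays, with colours from -2 (blue) to 2 (red). Genes from Ifi47 down to Irf2, apart from Iigp1 and Cxcl10, lie above their mean on all memory-derived unstimulated arrays and below it on all memory-derived stimulated arrays, and the list medians are 0.31, 0.43 and 0.64 on the former and -0.54, -0.53 and -0.43 on the latter.

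By origin, without stimulation 4 of the 33 were higher and 8 lower in naive-derived cells, where 10.4% and 14.3% of all genes were, with a median of -0.21. These counts were 2 and 2 without naive-derived unstimulated array 1 and 1 and 4 without array 2, and ran from 1 to 5 and 2 to 11 over all alternatives. After stimulation 10 were higher and 0 lower, where 1.55% and 1.82% of all genes were, with a median of 0.51 against -0.01. Gbp2 was higher by 2.25 (SE 0.208, adjusted p = 0.000254), Iigp1 by 1.79 (SE 0.261, adjusted p = 0.00419), Gbp6 by 1.47 (adjusted p = 0.000241), Ifi47 by 1.21 (adjusted p = 0.00551) and Igtp by 1.07 (adjusted p = 0.00641), of which Gbp2 and Iigp1 were named after their values were seen. Gbp6 lay between 4.69 and 4.97 in naive-derived stimulated cells and between 3.26 and 3.49 in memory-derived stimulated cells. All naive-derived stimulated arrays were thus higher, as for 10.6% of tested probe sets. The count of higher genes was 5 without memory-derived stimulated array 1, 6 without array 2, 6 without array 3 and 6 after rescaling to the hybridization controls, and 0 were lower in each of the 22 alternatives. On the interaction 9 were higher and 0 lower, where 1.16% and 0.777% of all genes were, which became 4 with the replicate block and 0 in experiments 1 and 2 only. That count was also 0 without memory-derived stimulated array 2 or either naive-derived unstimulated array, 2 without memory-derived stimulated array 1 or 3 or naive-derived stimulated array 1 or 2, 3 without memory-derived unstimulated array 1 and 4 without naive-derived stimulated array 3, while without memory-derived unstimulated array 2 the counts were 12 higher and 2 lower. All these comparisons share groups of arrays, so the counts are not separate evidence.

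**Figure D5:**
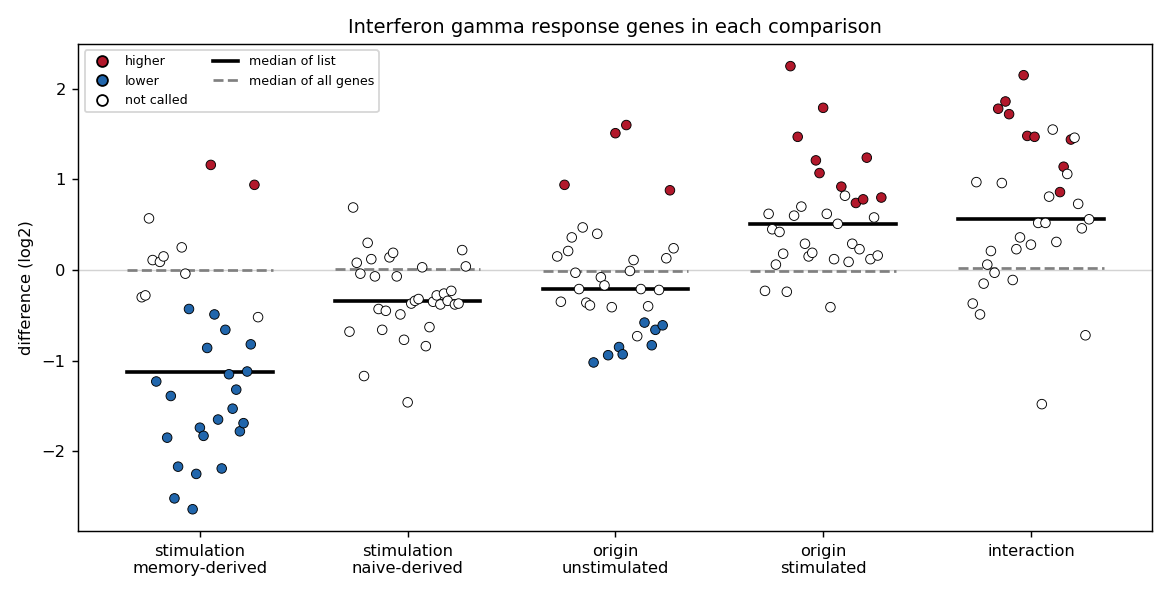
Log2 difference (vertical axis) of each of the 33 interferon gamma response genes in the 5 comparisons, coloured by whether the gene was called higher or lower, with the list median (solid) and the median of all tested genes (dashed). The list median is -1.12 on stimulation of memory-derived cells, -0.34 in naive-derived cells, -0.21 and 0.51 by origin without and with stimulation and 0.56 on the interaction.

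Among 22 other JAK, STAT and negative regulator genes 4 rose and 6 fell on stimulation of memory-derived cells, where 13.8% and 16.6% of all genes did (median -0.18, 3 to 7 in each direction over all alternatives), and none passed in naive-derived cells. Stat5a, which carries interleukin 2 signals, went from 4.79 to 5.90 across unstimulated to 8.31 to 8.46 across stimulated memory-derived arrays, a rise of 2.88 (SE 0.275, adjusted p = 9.2e-05). It is nearly identical to Stat5b in sequence, and the probe set may not separate them. Socs3, a feedback inhibitor of cytokine receptors, rose by 1.55 (SE 0.174, adjusted p = 0.000216), while Ptpn6, the phosphatase SHP-1 that acts on JAKs, fell by 2.05 (SE 0.166, adjusted p = 4.23e-05) and Pias3, an inhibitor of STAT3, fell by 1.24 (SE 0.21, adjusted p = 0.00164). Socs1, the main feedback inhibitor of interferon gamma signalling, differed by -0.16 (SE 0.227, adjusted p = 0.656), and its sign turned without memory-derived unstimulated array 2 (0.09). By origin without stimulation 5 of the list were higher and 2 lower, where 10.4% and 14.3% of all genes were (3 to 8 higher over all alternatives, with 3 without memory-derived unstimulated array 1 or 3 or either naive-derived array), with Stat5a at 2.76, Socs3 at 1.48, Ptpn6 at -1.58 and Pias3 at -1.35 (adjusted p from 0.00035 to 0.0027). After stimulation 2 were higher (0 to 3 over all alternatives) and 0 lower, where 1.55% and 1.82% of all genes were, and Stat5a differed by 0.18 (adjusted p = 0.818) and Socs3 by -0.39 (adjusted p = 0.307).

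The next list held chains of other cytokine receptors that use JAK1 or JAK2 in the receptor complex, not always on the listed chain itself. Of 15 tested, 5 fell and 1 rose on stimulation of memory-derived cells, where 16.6% and 13.8% of all genes did (median 0.01). Without memory-derived unstimulated array 3, 3 fell, and 0 to 2 rose over all alternatives. Il10rb, which serves interleukin 10 and lambda interferons, fell by 1.90 (SE 0.185, adjusted p = 0.000105). The chains of the type I interferon receptor, Ifnar1 and Ifnar2, fell by 1.28 (SE 0.227, adjusted p = 0.00207) and 1.10 (SE 0.205, adjusted p = 0.00273). Il7r, the interleukin 7 receptor, fell by 0.82 (SE 0.274, adjusted p = 0.0438), a call lost in 13 of 23 alternatives (adjusted p from 0.013 to 0.278).

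Of 29 genes that regulate Ifng transcription or mRNA, 8 rose and 7 fell on stimulation of memory-derived cells, where 13.8% and 16.6% of all genes did (median 0), and none passed in naive-derived cells. Zeb2, a transcription factor of terminal effector cells, rose by 2.48 (SE 0.479, adjusted p = 0.00325) and Rel, the NF-kappaB subunit c-Rel, by 2.40 (SE 0.249, adjusted p = 0.000146). Zfp36l2, which promotes decay of AU-rich mRNAs, fell by 2.37 (SE 0.36, adjusted p = 0.000948) and Nfatc3 by 1.59 (SE 0.215, adjusted p = 0.000519). The T-box factors Tbx21 and Eomes are known to bind the Ifng locus. Tbx21 (T-bet) was at 6.07 to 6.31 in memory-derived unstimulated, 6.60 to 6.68 in memory-derived stimulated, 6.92 to 7.25 in naive-derived unstimulated and 7.02 to 7.34 in naive-derived stimulated cells. Its group means stood in the same order as those of Ifng, but its 2 naive-derived groups overlapped, and a link between the 2 genes was not tested. Tbx21 was higher in naive-derived cells by 0.92 without stimulation (SE 0.156, adjusted p = 0.00246), and after it the difference was 0.54 (SE 0.14, adjusted p = 0.0693). Its rise of 0.47 on stimulation of memory-derived cells (SE 0.14, adjusted p = 0.0269) was lost in 7 of 23 alternatives (adjusted p from 0.0094 to 0.112). Eomes ran the other way, at 7.14 to 7.67 and 7.33 to 7.65 in memory-derived unstimulated and stimulated cells and at 4.81 to 4.95 and 2.97 to 4.26 in the naive-derived groups. It was lower in naive-derived cells, at -2.49 without stimulation (SE 0.306, adjusted p = 0.000529) and at -3.77 after it (SE 0.274, adjusted p = 5.74e-05).

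Of 12 receptors whose signals induce Ifng, 2 rose and 6 fell on stimulation of memory-derived cells, where 13.8% and 16.6% of all genes did (median -0.58), and without memory-derived unstimulated array 3 the counts were 1 and 7, without memory-derived stimulated array 1 they were 1 and 6, and without array 2 of that group 1 and 5. Il2ra, the high-affinity interleukin 2 receptor chain, rose by 1.52 (SE 0.329, adjusted p = 0.00596). Klrk1 (NKG2D), Il27ra and the costimulatory receptor Cd28 fell by 1.23 (SE 0.288, adjusted p = 0.00894), 1.19 (SE 0.175, adjusted p = 0.000777) and 1.04 (SE 0.231, adjusted p = 0.00679). After stimulation Il12rb1, an interleukin 12 receptor chain named after its value was seen, was higher in naive-derived cells by 1.27 (SE 0.129, adjusted p = 0.000412), while Cd28 was lower at -1.05 (SE 0.231, adjusted p = 0.0347, a call lost in 10 of 22 alternatives, among them the replicate block at 0.0615).

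The genes whose levels followed each member most closely over the 11 arrays are named as a description, since the arrays share 4 groups and group differences carry such correlations. For Ifng they were Tnfrsf18 (r = 0.973), Ccl3 (0.962), Mrm3 (0.954) and Ccl4 (0.951). Ccl3 and Ccl4 encode chemokines released by activated CD8+ T cells, and Tnfrsf18 encodes the costimulatory receptor GITR. For Ifng the deviations from group means, among which array 3 of memory-derived unstimulated cells lies farthest out, correlated at 0.919 to 0.972 with these 4. For Ifngr1 they were Tmem134 (0.994), Emp3 (0.992), Gimap8 (0.989) and Xpa (0.989), and for Ifngr2 9430085M18Rik (0.875), Smarca5 (0.862), Brpf1 (0.861) and Lrig1 (0.86). For Jak1 they were Frmd8 (0.99), Ptpra (0.99), Tbcb (0.987) and Wipf1 (0.987). For Jak2 they were Ppp1r15a (0.989), Slc41a1 (0.988), Ktn1 (0.988) and Chd1 (0.988).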

How the data were processed

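Total RNA of 11 samples was labelled by the Affymetrix one-cycle protocol, per the labels. The authors deposited normalized values, taken here as log10 intensities, which the submitters' processing notes tie to Affymetrix Expression Console. Their log base is not given in the sources used here and was inferred, because hybridization controls stepped by 0.965, 0.8 and 1.7 per log10 of concentration, and folds rest on it. All 11 columns hold the same sorted values (quantile normalization), up to 4.56, so array brightness holds no depth. Precision depends on how many arrays a group has and on the spread of each probe set.

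Values were multiplied by 3.322 to a log2 scale. Control probe sets (64), those with several symbols (932) and those not listed (9160) were left out, and 34741 of 34945 matched the gene table with 0 symbols changed. The 27046 that exceeded the 40th percentile of the array (1.54) on 2 arrays or more were fitted as 4 group means with limma 3.58.1 (R 4.3.3, lmFit and eBayes, two-sided, Benjamini and Hochberg over all 27046 within a comparison, 7 residual and 4.162 prior degrees of freedom). A gene in a list was represented by its probe set with the highest mean.

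All probe sets of the 5 genes are described. Of each list the 4 largest changes among those that passed on stimulation of memory-derived cells are named, plus Irf1, Socs1, Socs3, Tbx21 and Eomes, and for each member the 4 genes with the highest Pearson correlation. The members, lists and tests were chosen with earlier results of these data known, and the lists are background knowledge, not independent evidence.

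The replicate number equals the experiment number in the sample descriptions, and on that label alone it was taken to pair arrays. The values show no clear pairing: deviations from group means correlated at -0.105 to 0.138 within an experiment (median 0.0325, 15 pairs) and -0.16 to 0.147 between experiments (median -0.0073, 30 pairs). Alternatives were blocks, filters, scalings, probe set summaries, priors, floors and arrays left out. The script was tested on simulated data. RefSeq promoters (GRCm38.p6) matched 5 of 5 members. An item that the naming rule also holds is not reported here. Figures were drawn with matplotlib 3.10.9 (Python 3.11.15, pandas 2.3.3).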

Additional observations from a re-analysis of the deposited data

Results flagged for a closer look

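For 3 probe sets the response to stimulation differed between origins by the test of the difference itself (limma, naive-derived minus memory-derived response). The values were 2.02 for Ifngr1 on 1448167_at (SE 0.294, adjusted p = 0.0191), -1.46 for Jak2 on 1421065_at (SE 0.309, adjusted p = 0.0461) and -1.54 for Jak2 on 1421066_at (SE 0.28, adjusted p = 0.0329). With the replicate block the differences were 2.08, -1.52 and -1.60, with adjusted p of 0.0607, 0.0794 and 0.067.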

How the results depend on the processing

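Over the 8 member probe sets and 5 comparisons, 804 of the recomputed results kept their direction and their side of the threshold, 41 lost a call, 5 gained one and 11 changed sign. The calls of Ifngr1 and Jak2 on stimulation of memory-derived cells and by origin without stimulation held in all alternatives. Of the 5 genes, each read from its brightest probe set, 3 passed on stimulation of memory-derived cells, where 30.4% of all genes did. By origin without stimulation 3 passed, where 24.7% of all genes did. On the interaction 2 passed, where 1.94% of all genes did. That count was 0 with the replicate block, 1 with no filter, 0 in experiments 1 and 2 only and 0 to 2 with an array left out. By origin after stimulation 0 passed, where 3.37% of all genes did. That count was 1 when only the groups compared were fitted and 0 to 1 with an array left out (Ifng, without memory-derived unstimulated array 3). The replicate block changed no other member call. Jak1 on 1433804_at lost its call on stimulation of memory-derived cells in experiments 1 and 2 only (-0.61, adjusted p = 0.0724), where Jak1 also lost origin calls (0.0549 and 0.0662).

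Sign changes, none of a called value, were as follows, with the range over arrays left out. On stimulation of naive-derived cells Jak1 was at 0.08 on 1433803_at (-0.32 to 0.08) and 0.09 on 1433804_at (-0.25 to 0.09) without naive-derived unstimulated array 1 and at 0.02 on 1433804_at without naive-derived stimulated array 2, and Ifngr2 was at 0.04 without the latter (-0.27 to 0.04). By origin after stimulation Jak1 on 1433803_at (-0.18 to 0.05) was at 0.05 without memory-derived stimulated array 3, at 0.02 without naive-derived stimulated array 2 and at 0.02 in experiments 1 and 2 only, and Ifngr2 (-0.05 to 0.25) was at -0.05 without naive-derived stimulated array 3 and -0.15 in experiments 1 and 2 only. The Ifng interaction (-1.96 to 0.23) was 0.23 without memory-derived unstimulated array 3 and 0.17 in experiments 1 and 2 only. On stimulation of memory-derived cells Socs1 (-0.37 to 0.09) was at 0.09 without memory-derived unstimulated array 2, and Eomes (-0.06 to 0.21) at -0.06 without array 3 of that group and -0.05 without memory-derived stimulated array 1. The cause was not tested.

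Counts over all probe sets moved more. The interaction had 455 calls, 14 with the replicate block, 424 with experiment as a random block, 1059 with origin and experiment as a random block (added after seeing the data), 92 with no filter, 1482 with a 60th percentile filter, 1645 with a trended robust prior, 1276 with a floor and 2 in experiments 1 and 2 only. Rescaling to the hybridization controls took it to 214, of which 98 were higher against 254 of 455, and the origin comparison after stimulation from 790, 369 higher, to 554, 192 higher. That comparison had 305 calls in experiments 1 and 2 only. Stimulation of memory-derived cells went from 7608 to 5003 after rescaling and 4051 in experiments 1 and 2 only, and origin without stimulation from 6073 to 3773, 3883 and, fitted on its own groups, 3708. Stimulation of naive-derived cells had 3 calls, and 0 with the replicate block and 15 with the trended prior. With an array left out, the interaction had 0 (without memory-derived stimulated array 2 or naive-derived unstimulated array 1) to 2028 calls (without memory-derived unstimulated array 2). Likewise origin without stimulation had 2460 and 2720 without naive-derived unstimulated arrays 2 and 1, and origin after stimulation 398, 412 and 436 without memory-derived stimulated arrays 1, 2 and 3 and 411 without naive-derived stimulated array 3. Groups of 2 or 3 arrays limit the precision of all these values.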

Other observations

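The genes next to Ifng in the order of the gene table were looked at for their own levels. Of 8 neighbours, 4 on each side, Il22 and Iltifb were not analysed here. Rap1b, a small GTPase, rose by 0.40 on stimulation of memory-derived cells (limma, SE 0.118, adjusted p = 0.0259), and Helb, a DNA helicase, fell by 0.75 there (SE 0.238, adjusted p = 0.0354), in a comparison in which 30.4% of all genes passed. Mdm1, Dyrk2, Cand1 and Grip1 passed in none of the 5 comparisons, with origin differences after stimulation of 0.07, -0.09, -0.13 and -0.08 (adjusted p from 0.783 to 0.918). For Ifng, which also passed in none in the main fit of all 11 arrays, that difference was 1.12 (SE 0.839, adjusted p = 0.58).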
